A study of Mus musculus with 69 samples.

Results

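WT vascular smooth muscle cells (VSMC) exposed to ALL stressors at once were compared with WT VSMC kept under Control conditions. The members are the 8 libraries that the sample labels mark as genotype WT with the treatment ALL or Control, out of 69 libraries in the series, and they formed 4 pairs with n = 4 in each group. Every pair belonged to a set, which stands for cells of 1 male C57BL/6 mouse at 1 passage that were treated together. The cells were grown from collagenase-digested thoracic and abdominal aorta, passaged in medium with serum and bFGF, and kept without serum and supplements for 24 h before treatment, in both groups. ALL stressors meant 24 h with 20 mM glucose and free fatty acids (HG + FFA) together with 30 nM angiotensin II and 300 nM of a catecholamine (AII + NA). The labels give the fatty acids as 100 µM without naming them and call the catecholamine epinephrine, whereas the methods of the study name norepinephrine, and give 100 µM for oleate and for palmitate each, so that the total of fatty acids may be higher than the labels state. Control cells received no added fatty acids, angiotensin II or catecholamine. By the methods their medium was low in glucose, not free of it, and fatty acid-free albumin was added to the solutions of both groups. Values for the single stressors came from the 4 HG + FFA and the 4 AII + NA libraries of the same sets, and those for KO VSMC from 4 Control and 3 ALL libraries of cells in which Cre under the SM22 promoter had deleted floxed Egfr.

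Smooth muscle cells of the aortic wall contract through actin and myosin, and they also build the collagen and elastic fibres of the media. In culture and in diseased vessels they can move from a contractile state to a proliferative, matrix-producing one, and serum response factor (SRF) with its cofactors of the myocardin family drives many contractile genes. Angiotensin II and catecholamines act on these cells through G protein-coupled receptors. Glucose and fatty acids are nutrients in excess, and fatty acids are ligands of the peroxisome proliferator-activated receptors (PPAR), which switch on genes of fatty acid use.

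RNA was measured as poly(A) RNA-Seq. The 8 libraries held between 23626664 and 37801299 counts, and values are given as FPM, the fragments of a gene scaled to a common library size after normalisation, without correction for gene length. The log2FC is the difference ALL minus Control on the log2 scale with its SE, and the FDR is edgeR's adjusted p-value over all 16905 genes tested, with the set as a block. A DEG had in addition an FDR under 0.05 by DESeq2, at least 0.64 as |log2FC| and a mean of at least 3 FPM in either group. Only protein-coding and lncRNA genes could be DEG. Levels of single genes differed widely among sets. Set 3 had far less Eln than the other sets in both groups, with 13 FPM in Control against 161 to 204 FPM in the other Control libraries.

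By edgeR alone 662 genes were higher and 597 lower under ALL stressors, that is 3.92% and 3.53% of the genes tested. Counts of called members in each gene list are to be read against these shares. DEG numbered 202 higher (1.19%) and 158 lower (0.935%), of which 348 were protein-coding and 12 were lncRNA genes. Of the 360 DEG, 350 moved the same way in all 4 sets and 10 in 3 of them. The changes were moderate in size, with a median log2FC of 0.89 among the higher and of -0.84 among the lower DEG. A |log2FC| of at least 1 was reached by 128 DEG and one of at least 2 by 7. Leaving out 1 set gave 377 (set 1), 245 (set 2), 359 (set 3) or 262 (set 4) DEG, and 139 of the 360 were DEG in the same direction without each of the sets. The calls rest on the comparison within sets, since a fit without the set as a block called 0 genes by edgeR, with 864 genes at an unadjusted p under 0.05 and 78 called by DESeq2. The 864 genes are near a share of 0.05 of all genes tested. That fit leaves the differences among sets in the error, so this share cannot be read as the absence of an effect.

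The protein-coding DEG with the largest rise was Pcdh10 (ENSMUSG00000049100, chromosome 3, 45332833 to 45390058 of GRCm39), a protocadherin of cell adhesion. It had 1.03, 1.43, 0.843 and 0.890 FPM in the Control libraries of sets 1 to 4 and 12.2, 8.11, 4.15 and 2.51 FPM under ALL stressors (log2FC 2.54 ± 0.26, FDR 6.62e-05). Every ALL library lay above every Control library. Ramp1, which forms the CGRP receptor with the calcitonin receptor-like receptor, had 0.999, 0.521, 0.553 and 0.376 FPM in Control and 2.1, 3.18, 1.42 and 6.88 FPM under ALL stressors (log2FC 2.27 ± 0.46, FDR 0.00703), again without overlap. Adcy1, an adenylyl cyclase that makes cAMP, had 7.30, 9.39, 32.8 and 11.2 FPM in Control and 31.2, 41.4, 68.0 and 55.9 FPM under ALL stressors (log2FC 1.87 ± 0.23, FDR 0.000433). Its Control value in set 3 exceeded the ALL value of set 1, so that the groups overlapped while all 4 sets rose. Npas4, an activity-dependent transcription factor, rose from 0.257, 0.424, 2.55 and 0.171 FPM to 1.57, 5.11, 2.80 and 7.15 FPM in sets 1 to 4 (log2FC 2.38 ± 0.57, FDR 0.0184), with almost no change in set 3.

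The other higher DEG of largest size were Gm33228 (log2FC 3.55 ± 0.87) and Gm12840 (1.86 ± 0.43), which are lncRNA genes, Lrrc39 (2.30 ± 0.33), Cd36 (1.95 ± 0.37), Map3k7cl (1.87 ± 0.42) and Styxl2 (1.85 ± 0.30). Lrrc39 and Styxl2 are sarcomere-associated genes of striated muscle. Lrrc39 shares 41.3% of its exon bases with other genes, which makes its count uncertain. Among these, calls were lost on leaving out a set for Npas4 without set 1, 2 or 4 (highest FDR 0.0911), Gm33228 without set 1 or 3 (highest FDR 0.0926), Gm12840 without set 3 or 4 (highest FDR 0.0878) and Map3k7cl without set 2 (highest FDR 0.0673).

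The DEG with the largest fall was H19 (ENSMUSG00000000031, chromosome 7, 142129262 to 142133957), an imprinted lncRNA expressed mainly in fetal tissues. It had 61.1, 230.3, 33.2 and 533 FPM in Control and 20.1, 41.5, 2.18 and 139 FPM under ALL stressors in sets 1 to 4 (log2FC -2.33 ± 0.37, FDR 0.00170). It fell in each set, although Control levels differed so much among sets that the groups overlapped. Apod, a lipocalin that carries lipids, fell from 60.8, 70.4, 9.35 and 72.7 FPM to 16.7, 14.8, 1.66 and 26.7 FPM (log2FC -1.97 ± 0.15, FDR 6.97e-06). It fell in every set, and 26.4% of its exon bases are shared with other genes. Aspn, a small leucine-rich proteoglycan, had 16, 6.49, 3.92 and 19.6 FPM in Control and 6.04, 1.62, 1.18 and 2.56 FPM under ALL stressors (log2FC -2.02 ± 0.29, FDR 0.000963).

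The next lower DEG were Nptx1 (log2FC -1.98 ± 0.42), Lnx1 (-1.56 ± 0.22), the IL-33 receptor gene Il1rl1 (-1.55 ± 0.29), Xpnpep2 (-1.49 ± 0.27), the retinaldehyde dehydrogenase gene Aldh1a3 (-1.48 ± 0.16), the angiotensin receptor gene Agtr2 (-1.48 ± 0.26) and the interferon-stimulated gene Oas2 (-1.48 ± 0.35). Il1rl1 and Oas2 were lower in every ALL library than in any Control library. The calls of 2 of these genes were lost on leaving out a set, namely Nptx1 without set 2 (highest FDR 0.0881) and Oas2 without set 2 or 3 (highest FDR 0.132).

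**Figure D1:**
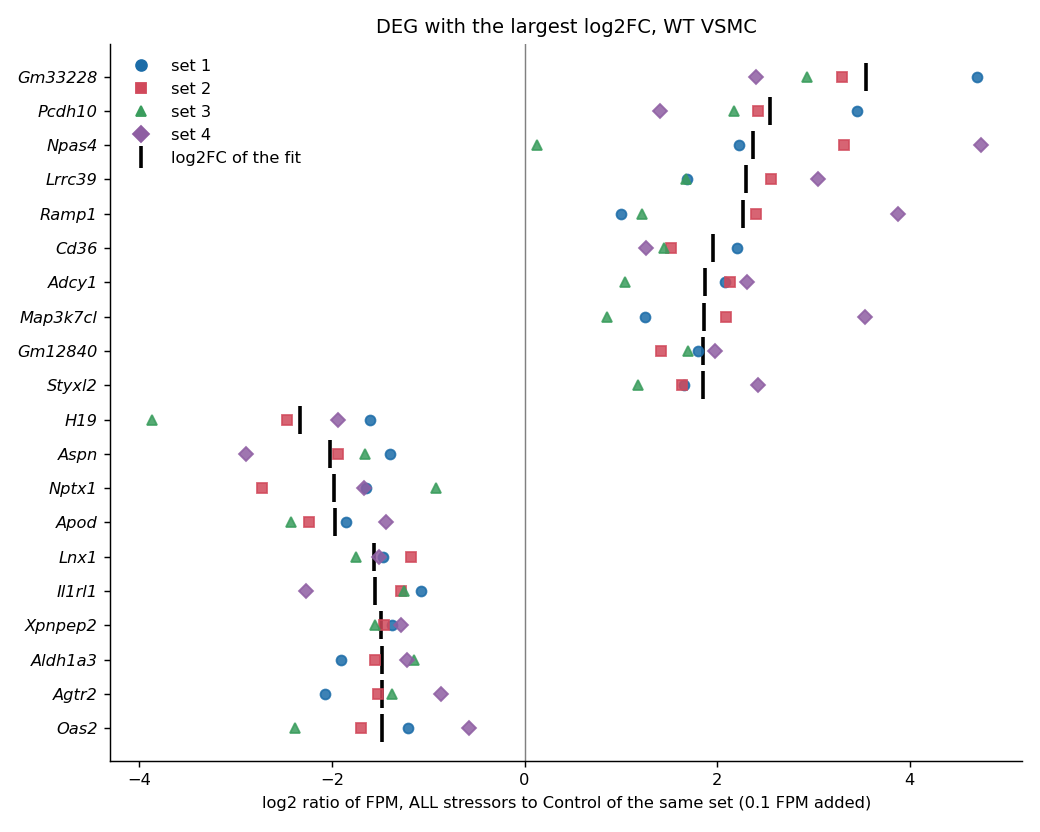
Log2 ratio of ALL over Control FPM (x axis) in each of the 4 sets (symbols) for those 10 DEG that rose and those 10 that fell with the greatest |log2FC| and the same direction in all sets, with a pseudocount of 0.1 FPM. All points of the upper 10 genes lie right of 0 and all points of the lower 10 lie left of it, with a wide spread among sets for Gm33228 and Npas4 and a narrow one for Apod.

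Genes of the contractile apparatus rose in part. Of 23 tested members 7 were higher and none was lower by edgeR (30.4% against 3.92% of all genes), and the median log2FC of the list was 0.48 against -0.01 over all genes. The same list had per-set medians of 0.17, 0.76, 0.05 and 1.08 in sets 1 to 4, so that sets 2 and 4 carried most of the shift. Itga8, an integrin of smooth muscle, had 15.3, 20.8, 18.7 and 29.5 FPM in Control and 41.0, 88.6, 36.6 and 165 FPM under ALL stressors (log2FC 1.75 ± 0.25, FDR 0.000918). No ALL library reached down to a Control library. Mylk, the kinase that phosphorylates myosin light chain to start contraction, rose from 9.79, 12.1, 20.8 and 27.1 FPM to 15.5, 29.4, 43.0 and 72.9 FPM (log2FC 1.11 ± 0.18, FDR 0.00211), with overlap between sets but a rise within each. The myosin light chain genes Myl12b (log2FC 0.80 ± 0.16) and Myl12a (0.75 ± 0.16) and the calsequestrin gene Casq2 (2.54 ± 0.60) also rose. Casq2 stayed at or under 1.18 FPM throughout.

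The defining smooth muscle markers gave a less even picture. Acta2, smooth muscle α-actin, had 784, 341, 995 and 221 FPM in Control and 1002, 960.3, 887 and 1254 FPM under ALL stressors, which is a log2FC of 1.06 ± 0.35 with an FDR of 0.0823. It was more than 2-fold higher in sets 2 and 4, which had the lower Control levels, and not in sets 1 and 3, where it was already high. Under ALL stressors the 4 libraries lay within a narrow range. Cnn1 (calponin, log2FC 0.84 ± 0.26, FDR 0.0628), Lmod1 (0.61 ± 0.24, FDR 0.133), Myh11 (smooth muscle myosin heavy chain, 0.39 ± 0.20, FDR 0.283) and Smtn (-0.13 ± 0.15, FDR 0.684) did not pass the test either. Tagln, the gene of SM22, did pass, from 4.28, 2.15, 2.92 and 1.57 FPM to 4.53, 4.56, 5.15 and 6.22 FPM (log2FC 0.95 ± 0.26, FDR 0.0361). However, 66.7% of its exon bases are shared with other genes, so that its low count is uncertain. All 6 markers were detected in every library, and their summed FPM lay between 333.0 and 1149.7 in Control and between 1031 and 1435 under ALL stressors.

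Genes of the actin cytoskeleton and SRF targets also rose in part. Of 22 tested, 10 were higher (45.5%) and none lower, with a median log2FC of 0.49. Fblim1, which links filamin to adhesion sites, had 56.9, 60.1, 65.5 and 72.8 FPM in Control and 115, 133, 92.6 and 150.2 FPM under ALL stressors (log2FC 0.93 ± 0.11, FDR 0.000380) without overlap. Tpm4, a tropomyosin, had log2FC 0.72 ± 0.18, the adaptor gene Pdlim5 0.65 ± 0.17 and the LIM protein gene Fhl1 0.54 ± 0.09. Flna, Actn1, Actn4, Tln1, Pdlim7 and Lima1 made up the rest, with log2FC between 0.28 and 0.53. Leaving out set 4 reduced the 10 genes to 3 and leaving out set 2 to 5, whereas 12 and 9 were called without sets 1 and 3. Of the genes named for both lists, calls were lost for Tagln without set 2, 3 or 4 (highest FDR 0.124), Casq2 without set 2 or 3 (highest FDR 0.107), Tpm4 without set 2 or 4 (highest FDR 0.113), Pdlim5 without set 2 or 4 (highest FDR 0.108), Flna without set 1, 2 or 4 (highest FDR 0.138), Actn1 without set 1, 2 or 4 (highest FDR 0.141), Tln1 without set 4 (highest FDR 0.0517), Pdlim7 without set 4 (highest FDR 0.0910) and Lima1 without set 2, 3 or 4 (highest FDR 0.168).

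The promoters of these lists were searched for the CArG box, the 10-base element that SRF binds, because these genes are known SRF targets. Only exact matches to CC, 6 bases of A or T and GG were counted. Both strands of the 250 bases before the annotated start were searched. Boxes with other letters or outside these bases were not counted, so a gene without a match may still have one. The box was found in 6 of 22 promoters of the actin list (27.3%), in 1 of 25 of the contractile list and in 1.4% of 21770 protein-coding promoters. Of the actin genes with it, Fhl1 and Lima1 were called higher, while Vcl, Actb, Cnn2 and Filip1l were not called. In the contractile list it was that of Tagln. The elements of Fhl1 and Tagln are shown here in capitals, as a match of letters only, 5′ to 3′ on the strand of the gene, read from GRCm39 with starts from the GENCODE annotation.
Fhl1: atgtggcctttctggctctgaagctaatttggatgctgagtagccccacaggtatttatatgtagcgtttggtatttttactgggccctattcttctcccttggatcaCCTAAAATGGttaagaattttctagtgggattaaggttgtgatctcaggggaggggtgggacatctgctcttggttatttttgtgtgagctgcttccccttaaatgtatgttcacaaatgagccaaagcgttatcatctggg
Tagln: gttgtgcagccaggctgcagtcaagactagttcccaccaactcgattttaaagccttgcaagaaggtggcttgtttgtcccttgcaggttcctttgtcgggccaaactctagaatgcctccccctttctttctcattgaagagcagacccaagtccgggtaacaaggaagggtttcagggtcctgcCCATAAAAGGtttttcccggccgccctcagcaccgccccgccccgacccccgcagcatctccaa
The Fhl1 stretch lies at chrX:55824833-55825082 on the plus strand and the Tagln stretch at chr9:45847405-45847654 on the minus strand.

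Regulators of the smooth muscle phenotype moved in both directions, 5 higher and 3 lower of 24. Hdac9, a class IIa histone deacetylase, rose from 1.63, 2.87, 3.03 and 4.04 FPM to 3.30, 10.6, 7.05 and 16.7 FPM (log2FC 1.58 ± 0.23, FDR 0.00113) in every set. The SRF cofactor gene Mrtfa (log2FC 0.44 ± 0.08), the YAP partner genes Tead1 (0.40 ± 0.10) and Tead2 (0.26 ± 0.07) and Hdac5 (0.36 ± 0.09) rose by less. Klf2, a Krüppel-like factor, fell from 21.8, 55.0, 26.4 and 30.0 FPM to 13.6, 23.1, 12 and 14.7 FPM (log2FC -1.04 ± 0.12, FDR 0.000234). Klf4, a repressor of contractile genes in phenotypic switching, also fell (log2FC -0.58 ± 0.10, FDR 0.00330), and Foxo1 had log2FC -0.50 ± 0.11 without overlap between the groups. Without set 4 there were 1 higher and 2 lower genes called, and calls were lost for Mrtfa without set 4 (highest FDR 0.0576), Tead1 without set 1, 3 or 4 (highest FDR 0.108), Tead2 without set 2, 3 or 4 (highest FDR 0.293), Hdac5 without set 2 or 4 (highest FDR 0.131) and Foxo1 without set 4 (highest FDR 0.125).

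**Figure D2:**
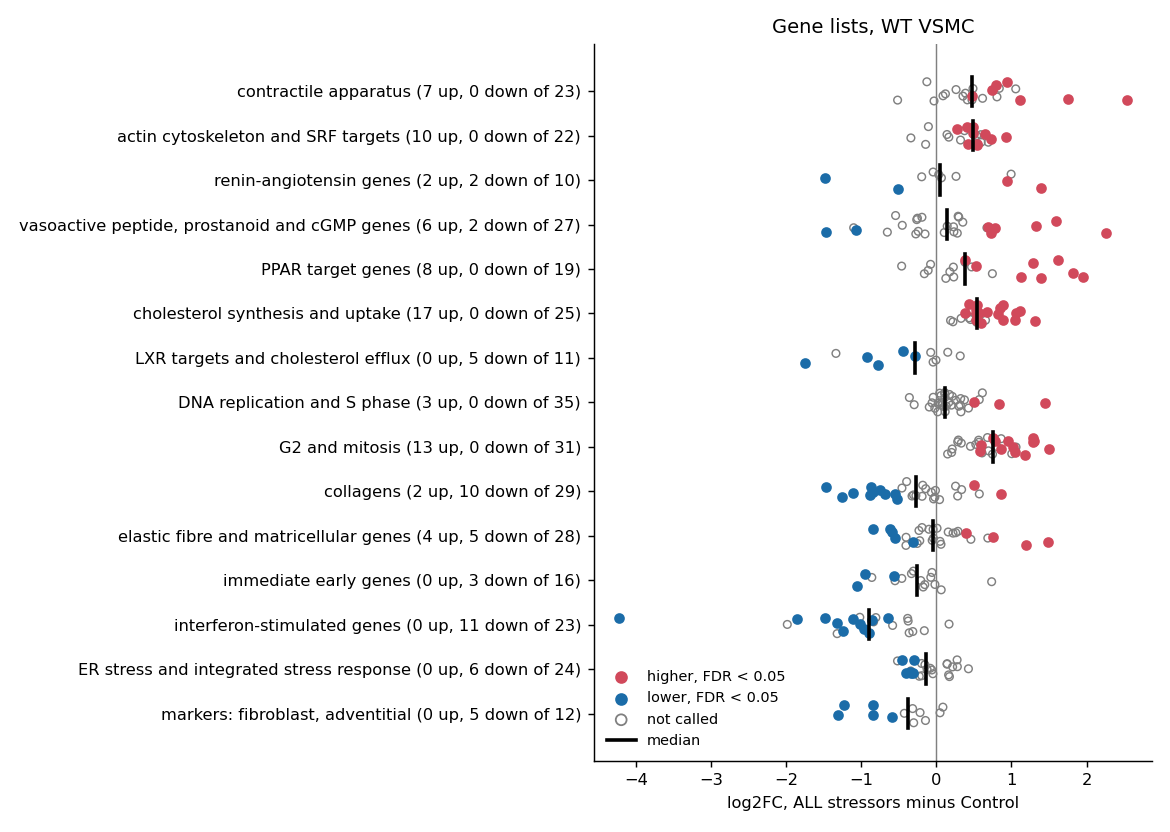
Log2FC of ALL minus Control (x axis) for every tested member of the gene lists (y axis, one row a list), with the members called by edgeR in colour and the list median marked. The lists for cholesterol synthesis and for G2 and mitosis lie wholly right of 0, while 22 of 23 interferon-stimulated genes lie left of it.

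Receptors for the hormones in the mixture changed in opposite directions. Of 10 renin-angiotensin genes tested 2 were higher and 2 lower. Agtr1b (ENSMUSG00000054988, chromosome 3, 20368609 to 20421348), 1 of the rodent genes for the type 1 receptor through which angiotensin II constricts vessels, had 2.00, 3.46, 2.27 and 3.73 FPM in Control and 3.20, 11.2, 4.49 and 14.9 FPM under ALL stressors (log2FC 1.40 ± 0.20, FDR 0.00100). It rose in each set and most in sets 2 and 4. Agtr1a, the other type 1 receptor gene, went from 12.1, 12.4, 4.69 and 16.9 FPM to 13, 22.5, 11 and 49.8 FPM (log2FC 0.93 ± 0.18, FDR 0.00570). Agtr2, the gene of the type 2 receptor, which is known to oppose type 1 signalling, fell from 2.40, 10.2, 0.606 and 14.3 FPM to 0.493, 3.48, 0.173 and 7.76 FPM (log2FC -1.48 ± 0.26, FDR 0.00347), that is 2.79-fold. Levels of Agtr2 in sets 1 and 3 were low in both groups. Ace, which makes angiotensin II from angiotensin I, had log2FC -0.52 ± 0.11 and was not called without set 4.

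Of 6 adrenergic receptor genes tested 1 was called, Adra1b, a Gq-coupled receptor for norepinephrine, with 6.71, 2.22, 3.95 and 0.890 FPM in Control and 9.64, 4.16, 7.57 and 2.56 FPM under ALL stressors (log2FC 0.89 ± 0.15, FDR 0.00265). It rose in all 4 sets from Control levels that differed widely. Among regulators of G protein signalling Rgs3 (log2FC 0.51 ± 0.12) and the receptor kinase gene Grk5 (0.23 ± 0.06) were higher and Rgs5 (-0.55 ± 0.16) was lower, of 17 tested.

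Of 27 genes for vasoactive peptides, prostanoids and cGMP 6 were higher and 2 lower. Edn1, the precursor of the vasoconstrictor endothelin-1, had 6.08, 19.2, 11.5 and 8.31 FPM in Control and 6.13, 45.2, 36.5 and 73.0 FPM under ALL stressors (log2FC 1.59 ± 0.35, FDR 0.0111). In set 1 it did not move, and in set 4 it rose most. F2r, the thrombin receptor (log2FC 0.79 ± 0.11), Npr3, the clearance receptor for natriuretic peptides (0.73 ± 0.15), Ednrb, an endothelin receptor (0.69 ± 0.15), and Ramp3 (1.33 ± 0.37) were higher besides Ramp1. Bdkrb1, a bradykinin receptor (-1.47 ± 0.39), and Ramp2, the partner that turns the calcitonin receptor-like receptor into an adrenomedullin receptor (-1.07 ± 0.14), were lower. Ramp1 and Ramp2, which give the same receptor different ligands, thus moved in opposite directions, each in all 4 sets. Of 20 genes for calcium handling and ion channels Cacnb3 (0.41 ± 0.07) was higher, and Kcnj8, a subunit of the vascular ATP-sensitive potassium channel (-1.44 ± 0.29), and Itpr3 (-0.43 ± 0.10) were lower. That is 5% higher and 10% lower, against 3.92% and 3.53% of all genes. Calls among the signalling genes were lost with a set left out for Grk5 without set 1, 3 or 4 (highest FDR 0.197), Rgs3 without set 4 (highest FDR 0.144), Rgs5 without set 1, 2 or 4 (highest FDR 0.246), Edn1 without set 4 (highest FDR 0.0576), Ramp3 without set 1, 2, 3 or 4 (highest FDR 0.172), Bdkrb1 without set 2, 3 or 4 (highest FDR 0.138) and Itpr3 without set 2, 3 or 4 (highest FDR 0.160).

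PPAR target genes rose, 8 of 19 tested (42.1% against 3.92% of all genes) with none lower and a median log2FC of 0.38. Pdk4, the kinase that blocks entry of pyruvate into the citric acid cycle, had 20.5, 39.1, 45.8 and 31 FPM in Control and 119, 93.3, 164 and 56.5 FPM under ALL stressors (log2FC 1.62 ± 0.23, FDR 0.00100). The groups did not overlap. Angptl4, an inhibitor of lipoprotein lipase, had 92.9, 341, 258 and 487 FPM in Control and 465, 579.7, 768 and 700.5 FPM under ALL stressors (log2FC 1.28 ± 0.29, FDR 0.0138), with the strongest rise in set 1, where Control was lowest. Stbd1, a glycogen-binding protein, rose from 15.3, 37.7, 28.4 and 43.1 FPM to 89.3, 92.8, 65.7 and 69.6 FPM (log2FC 1.40 ± 0.27, FDR 0.00617) without overlap. Cd36, the fatty acid translocase, had log2FC 1.95 ± 0.37. Cd36 counts were low, with 0 FPM in the Control library of set 3. Cpt1a, which loads fatty acids onto carnitine (log2FC 0.53 ± 0.14), and Acot1 (0.38 ± 0.11) were higher too.

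Fabp4, a fatty acid binding protein, rose from 13.3, 14.4, 168 and 11.8 FPM to 50.8, 65.0, 333 and 60.8 FPM (log2FC 1.82 ± 0.25, FDR 0.000794). It is also an adipocyte marker and was the only 1 of 7 such markers that reached 1 FPM in any library, while Adipoq and Lep were at 0 in all 8. Set 3 had the most Fabp4 in both groups, and the gene rose in every set. Without set 3 there were 4 PPAR targets called and without the other sets 6 or 7.

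Genes of mitochondrial fatty acid oxidation moved little, with 2 of 20 higher. Ech1, an enzyme for unsaturated fatty acids, had 126, 189, 216 and 227 FPM in Control and 240.1, 355, 368 and 326 FPM under ALL stressors (log2FC 0.79 ± 0.12, FDR 0.00179) without overlap, and Acadl had log2FC 0.23 ± 0.07. In the lipid droplet list Lipe, hormone-sensitive lipase, was higher (log2FC 0.70 ± 0.11, FDR 0.00125) and Gpam, which starts triglyceride synthesis, was lower (log2FC -0.59 ± 0.13, FDR 0.0128), of 15 tested (6.67% each). Of 25 genes for glucose transport and glycolysis Pfkfb3, which makes the activator of phosphofructokinase, was higher (log2FC 0.86 ± 0.19, FDR 0.0123) and the glucose-responsive arrestin gene Arrdc4 was lower (log2FC -0.96 ± 0.23, FDR 0.0188). That is 4% higher and 4% lower, near the 3.92% and 3.53% of all genes, so the list as a whole did not stand out. The thioredoxin-interacting gene Txnip, a relative of Arrdc4, had 791, 1156, 1276 and 1345 FPM in Control and 396, 1008, 1437 and 1332 FPM under ALL stressors (FDR 0.398). Of 12 glycogen genes Ppp1r3c, which targets protein phosphatase 1 to glycogen, and Pygl, glycogen phosphorylase, were lower with log2FC -0.82 ± 0.16 and -0.44 ± 0.09. Calls in these lists were lost with a set left out for Acadl without set 1, 2, 3 or 4 (highest FDR 0.190), Gpam without set 4 (highest FDR 0.0758), Pfkfb3 without set 3 (highest FDR 0.0535), Arrdc4 without set 1, 2 or 4 (highest FDR 0.0773), Pygl without set 4 (highest FDR 0.0998), Cpt1a without set 1, 2 or 3 (highest FDR 0.130), Acot1 without set 1, 2, 3 or 4 (highest FDR 0.276) and Angptl4 without set 3 (highest FDR 0.103).

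Cholesterol genes rose, in 1 direction throughout. Of 25 genes for synthesis and uptake 17 were higher and none lower (68.0% against 3.92%), and the log2FC of all 25 lay above 0, with a median of 0.54. The per-set medians were 0.73, 0.68, 0.79 and 0.38. Fdps (ENSMUSG00000059743, chromosome 3, 89000888 to 89019213), which makes farnesyl diphosphate, had 53.6, 24.8, 29.5 and 11.7 FPM in Control and 98.6, 64.1, 71.7 and 21.0 FPM under ALL stressors (log2FC 1.11 ± 0.24, FDR 0.0105). Sqle, squalene epoxidase, rose from 65.9, 36.4, 66.8 and 18.7 FPM to 95.4, 70.3, 113 and 47.7 FPM (log2FC 0.89 ± 0.11, FDR 0.000436). Each rose in all 4 sets. Set 4 had the lowest level of both genes in each group. The demethylase gene Cyp51 had log2FC 0.67 ± 0.15, the regulator gene Srebf2 0.54 ± 0.10 and Idi1 1.06 ± 0.30. Without set 2 there were 10 genes called and without the other sets 11 to 15, and the call of Idi1 was lost without set 1, 2 or 4.

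LXR targets, among them genes of cholesterol export, went the other way. Of 11 tested 5 were lower and none higher (45.5% against 3.53%), with a median log2FC of -0.29. Abca1, the transporter that loads apolipoprotein A-I, had 202, 262, 227 and 404 FPM in Control and 98.1, 116, 195 and 236 FPM under ALL stressors (log2FC -0.78 ± 0.17, FDR 0.0128). Mylip, a ubiquitin ligase, fell from 71.7, 77.9, 56.4 and 101 FPM to 35.1, 38.8, 28.6 and 63.8 FPM (log2FC -0.92 ± 0.14, FDR 0.00113). Abcg1 (log2FC -1.75 ± 0.35, FDR 0.00666) was lower in every ALL library than in any Control library at under 3 FPM. Apoe and Lpcat3 had log2FC -0.44 ± 0.12 and -0.29 ± 0.08. With 1 set left out 2 or 3 of the 5 were called. In the list of fatty acid synthesis and desaturation Fads1, Acly and Fads3 were higher (log2FC 0.46 ± 0.11, 0.45 ± 0.09 and 0.42 ± 0.08), whereas Scd2, a stearoyl-CoA desaturase (-0.58 ± 0.13), and Acacb (-0.43 ± 0.12) were lower, of 16 tested. The desaturase, cholesterol and efflux genes that lost their call without 1 set were Abca1 without set 1 or 4 (highest FDR 0.0776), Abcg1 without set 2 (highest FDR 0.0697), Apoe without set 1, 2, 3 or 4 (highest FDR 0.190), Lpcat3 without set 1, 2, 3 or 4 (highest FDR 0.308), Fads1 without set 1, 2 or 3 (highest FDR 0.113), Scd2 without set 2 or 4 (highest FDR 0.0839) and Acacb without set 2, 3 or 4 (highest FDR 0.210).

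Genes of G2 and mitosis rose as a group from low levels. Of 31 tested 13 were higher and none lower (41.9% against 3.92%), all 31 log2FC were above 0 and the median was 0.75. Mki67, the proliferation marker, had 5.45, 5.38, 1.03 and 1.51 FPM in Control and 13.2, 12.6, 1.35 and 6.53 FPM under ALL stressors (log2FC 1.3 ± 0.17, FDR 0.000564). It rose least in set 3. Top2a, the topoisomerase that untangles chromosomes, rose from 16, 11.5, 3.42 and 5.20 FPM to 24.3, 27.5, 6.74 and 12.8 FPM (log2FC 1.02 ± 0.14, FDR 0.000737). The spindle and centromere genes Kif11, Cenpe and Cenpf had log2FC 1.28 ± 0.20, 1.29 ± 0.26 and 1.5 ± 0.25, with Cenpf at or under 4.37 FPM throughout. Ccnb1, the B-type cyclin that drives entry into mitosis, had log2FC 0.95 ± 0.18. Leaving out set 2 or set 4 reduced the 13 genes to 6, whereas 12 and 15 were called without sets 1 and 3.

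Of 35 DNA replication and S phase genes 3 were higher (8.57%) and none lower, with a median log2FC of 0.12. Mcm5 and Mcm3, subunits of the replicative helicase, had log2FC 0.83 ± 0.20 and 0.50 ± 0.13, and the repressor gene E2f8 had 1.45 ± 0.39. Of 14 genes for CDK inhibitors and D cyclins Cdkn1c, the imprinted inhibitor p57, was lower (log2FC -0.85 ± 0.11, FDR 0.000493) and Cdkn2b, the inhibitor p15, was higher (log2FC 0.69 ± 0.18, FDR 0.0287). Cdkn2b hardly moved in set 1, where it had 73.1 FPM in Control and 71.4 FPM under ALL stressors. Calls in the cell cycle lists were lost for Cenpe without set 2 (highest FDR 0.0501), Mcm5 without set 2, 3 or 4 (highest FDR 0.0959), Mcm3 without set 2, 3 or 4 (highest FDR 0.125), E2f8 without set 1, 2, 3 or 4 (highest FDR 0.109) and Cdkn2b without set 2, 3 or 4 (highest FDR 0.171).

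CCAAT boxes are common in promoters of G2 and mitosis genes and of cholesterol genes, where the factor NF-Y is known to bind them, so both lists were searched for CCAAT on either strand of the same 250 bases. It was present in 18 of 31 G2 and mitosis promoters (58.1%) and in 18 of 25 cholesterol promoters (72%), against 36.5% of all. The sterol regulatory element TCACNCCAC was found in 1 of 25 cholesterol promoters, that of Hmgcs1, which was not called, and in 1.12% of all. TTTGAA, the core of the cell cycle homology region, was found in 10 of 31 (32.3%) and in 15.6% of all. The promoter of Top2a (chr11:98915042-98915291, minus strand) is shown as the example with several CCAAT boxes, in capitals on either strand.
Top2a: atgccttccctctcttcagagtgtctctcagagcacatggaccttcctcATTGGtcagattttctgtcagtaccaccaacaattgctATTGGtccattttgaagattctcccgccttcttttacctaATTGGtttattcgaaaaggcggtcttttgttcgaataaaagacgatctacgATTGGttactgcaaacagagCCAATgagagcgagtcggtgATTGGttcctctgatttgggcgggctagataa

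Among matrix genes, collagens fell and single elastic fibre and matricellular genes rose. Of 29 collagen genes 10 were lower (34.5%) and 2 higher. Col3a1, the chain of fibrillar type III collagen, had 3396, 3108.2, 930.2 and 7727 FPM in Control and 2334, 1931, 710.2 and 3619 FPM under ALL stressors (log2FC -0.68 ± 0.15, FDR 0.00988). Col5a3, a type V chain, fell from 51.7, 76.4, 18.5 and 71.2 FPM to 21.8, 26.4, 7.61 and 20.1 FPM (log2FC -1.48 ± 0.15, FDR 9.20e-05), 2.78-fold. Both fell in all sets while the sets differed widely in level. Col15a1 (log2FC -1.26 ± 0.20), Col23a1 (-0.88 ± 0.12), and the type VI chain genes Col6a3 (-1.11 ± 0.21), Col6a2 (-0.56 ± 0.12) and Col6a1 (-0.52 ± 0.12) fell as well. The type I chain genes Col1a1 (log2FC -0.14 ± 0.13, FDR 0.580) and Col1a2 (-0.18 ± 0.10, FDR 0.333) were not called. Col12a1 (0.86 ± 0.17) and Col8a1 (0.50 ± 0.13) were higher. Without set 4 only 3 collagens were called lower, and without each other set 9 or 10 were.

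Tnc (ENSMUSG00000028364, chromosome 4, 63878014 to 63965443), tenascin C of remodelling tissue, had 182, 152, 296 and 155 FPM in Control and 409, 438, 653 and 681 FPM under ALL stressors (log2FC 1.49 ± 0.17, FDR 0.000234). Every ALL library was above every Control library. Eln, elastin, rose from 161, 179.8, 13 and 204 FPM to 275, 591, 19.2 and 611 FPM (log2FC 1.19 ± 0.21, FDR 0.00335), and the rise was present in set 3 at its far lower level. Ccn5 (log2FC 0.76 ± 0.20) and Fbln5, which assembles elastic fibres (0.39 ± 0.10), were higher too. Vcan, versican, fell (log2FC -0.84 ± 0.22, FDR 0.0263), as did Fbn1, fibrillin-1 (log2FC -0.60 ± 0.12, FDR 0.00856), Fbln1 (log2FC -0.61 ± 0.09), Comp (-0.55 ± 0.10) and Thbs3 (-0.31 ± 0.09). In all 4 elastic fibre and matricellular genes of 28 were higher and 5 lower.

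Of 19 genes for collagen crosslinking and processing 3 were higher and 3 lower. Lox, lysyl oxidase, which crosslinks collagen and elastin, had 2209, 712, 350.0 and 998 FPM in Control and 2992, 1271, 636 and 1826 FPM under ALL stressors (log2FC 0.75 ± 0.11, FDR 0.000891). P3h2 (log2FC 1.09 ± 0.27) and Loxl1 (0.32 ± 0.09) were higher, and Pcolce2 (-0.54 ± 0.12), P4ha3 (-0.52 ± 0.11) and Plod1 (-0.46 ± 0.10) were lower. Aspn, Omd (log2FC -0.89 ± 0.18) and Ecm2 (-0.82 ± 0.12) were lower among 11 small leucine-rich proteoglycans.

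Of 29 matrix proteases and inhibitors 3 were higher and 4 lower. Plat, tissue plasminogen activator, was lower (log2FC -0.43 ± 0.10). Adamts1 (0.78 ± 0.17) and Mmp15 (0.54 ± 0.13) were higher, and Mmp2 (-0.39 ± 0.11), Adamts6 (-0.75 ± 0.16) and Mmp9 (-2.37 ± 0.50), at or under 2.05 FPM, were lower. Matrix genes whose call was lost without a set were Col6a3 without set 4 (highest FDR 0.0739), Col6a2 without set 4 (highest FDR 0.118), Col6a1 without set 4 (highest FDR 0.108), Col3a1 without set 4 (highest FDR 0.0820), Col8a1 without set 2, 3 or 4 (highest FDR 0.228), Vcan without set 3 or 4 (highest FDR 0.161), Fbn1 without set 3 or 4 (highest FDR 0.0701), Fbln5 without set 3 or 4 (highest FDR 0.155), Comp without set 4 (highest FDR 0.0625), Thbs3 without set 1, 2, 3 or 4 (highest FDR 0.173), Ccn5 without set 2, 3 or 4 (highest FDR 0.162), P3h2 without set 1, 2 or 4 (highest FDR 0.162), Loxl1 without set 1, 2, 3 or 4 (highest FDR 0.234), Pcolce2 without set 1, 2 or 4 (highest FDR 0.0984), P4ha3 without set 1 (highest FDR 0.0532), Plod1 without set 4 (highest FDR 0.118), Omd without set 4 (highest FDR 0.0736), Adamts1 without set 2, 3 or 4 (highest FDR 0.0877), Adamts6 without set 3 or 4 (highest FDR 0.111), Mmp9 without set 2 or 4 (highest FDR 0.0990), Mmp15 without set 4 (highest FDR 0.120), Plat without set 2 or 4 (highest FDR 0.153) and Mmp2 without set 1, 2, 3 or 4 (highest FDR 0.345).

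Markers of other cells moved beside the matrix genes. Of 12 fibroblast and adventitial markers 5 were lower (Scara5, Cd34, Pi16, Clec3b and Ly6a) and none higher, and their summed level was 4321 to 6584 FPM in Control and 3115 to 4905 FPM under ALL stressors. The sum was lower in sets 1, 2 and 4 but higher in set 3, with 4534 FPM in Control and 4905 FPM under ALL stressors. None of the 12 was at 0. Cd34, a sialomucin of adventitial and progenitor cells, had 19.7, 89.7, 12.2 and 179 FPM in Control and 8.38, 42.7, 5.12 and 71.6 FPM under ALL stressors (log2FC -1.23 ± 0.12, FDR 3.74e-05), a fall in each set by a similar factor. Scara5, a ferritin receptor, fell from 106, 152, 6.32 and 219.7 FPM to 32.5, 54.1, 3.87 and 102 FPM (log2FC -1.31 ± 0.17, FDR 0.000564). In cultures measured in bulk, fewer cells of a type and less of its RNA per cell cannot be told apart, and the part of such cells in the fall of collagens was not tested. Pi16 and Clec3b had log2FC -0.85 ± 0.11 and -0.84 ± 0.12.

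Of 12 endothelial markers Cdh5 and Emcn were lower (log2FC -1.17 ± 0.25 and -1.57 ± 0.42). The calls were lost for Cdh5 without set 2 (highest FDR 0.291) and Emcn without set 1, 2, 3 or 4 (highest FDR 0.216). Cdh5, VE-cadherin, reached 22.8 FPM in the Control library of set 2 and stayed under 1 FPM in the Control libraries of the other sets. The summed endothelial level was 3.87 to 82.9 FPM in Control and 2.49 to 39.6 FPM under ALL stressors, highest in set 2 in both groups. No macrophage or leukocyte marker of 10 tested was called, at 37.3 to 273.9 FPM in Control and 45.4 to 176.2 FPM under ALL stressors in sum, with the T cell gene Cd3e at 0. Glial markers were not called either, at 21.7 to 71.3 and 14.9 to 77.9 FPM.

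**Figure D3:**
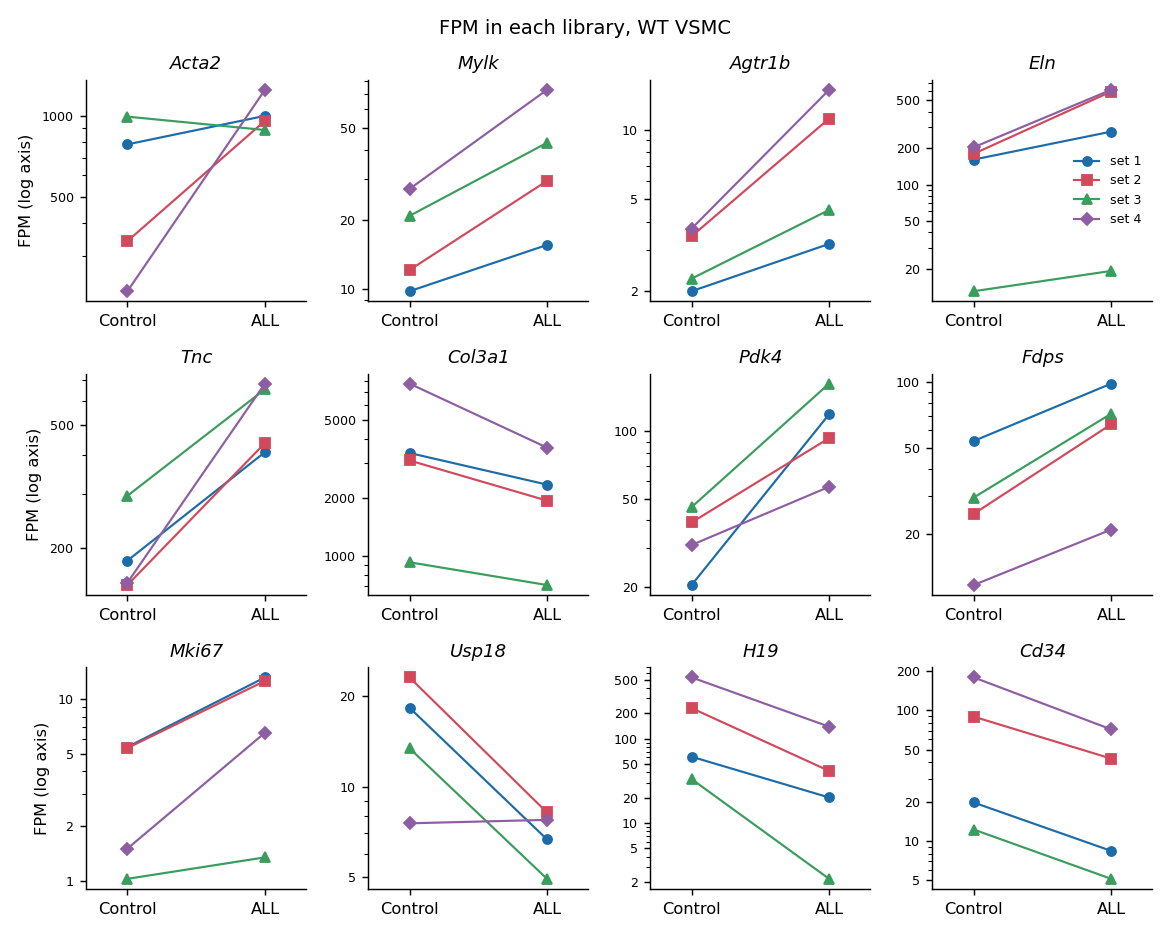
FPM (y axis, log scale) in the Control and the ALL library of each set (lines and symbols) for 12 genes picked after their values were seen. Tnc and Pdk4 separate the groups completely, Acta2 rises most in sets 2 and 4 and is lower in set 3, and Usp18 falls in sets 1 to 3 but not in set 4.

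Growth factor genes changed singly. Pdgfd, a ligand of PDGF receptor β, had 82.3, 64.2, 50.0 and 64.7 FPM in Control and 148, 141, 76.8 and 133 FPM under ALL stressors (log2FC 0.92 ± 0.12, FDR 0.000436). Flt1, a VEGF receptor (log2FC 0.82 ± 0.18), Fgfr2 (0.80 ± 0.17) and Fgfrl1 (0.48 ± 0.07) were higher and Fgfr1 (-0.44 ± 0.10) was lower, of 26 tested. Of 34 TGF-β and BMP genes 5 were higher and 5 lower. Bmp3 rose from 51.6, 51.1, 22.5 and 108 FPM to 94.1, 147, 44.2 and 321 FPM (log2FC 1.25 ± 0.11, FDR 3.74e-05) in each set. Gdf6, another BMP family ligand, had 39.3, 18.9, 26.6 and 26.6 FPM in Control and 69.1, 61.8, 53.3 and 198 FPM under ALL stressors (log2FC 1.58 ± 0.32, FDR 0.00713). Its groups did not overlap. Tgfb2 was higher (log2FC 0.96 ± 0.17), as were Id3 (0.58 ± 0.16) and the activin antagonist gene Fstl3 (0.57 ± 0.10), and the BMP-binding Bmper (-0.95 ± 0.18), Tgfbi (-0.76 ± 0.16), Inhbb (-0.53 ± 0.09), Ltbp4 (-0.43 ± 0.12) and Tgfbr2 (-0.41 ± 0.12) were lower.

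Egfr itself had 264, 308, 414 and 473 FPM in Control and 241, 242, 394 and 362 FPM under ALL stressors (log2FC -0.23 ± 0.10, FDR 0.201), lower in each set but not called. Of 15 genes for ErbB receptors, ligands and inhibitors only the ligand gene Nrg1 was called (log2FC 0.64 ± 0.17), which is 6.67% higher against 3.92% of all genes. Spry4 (0.93 ± 0.25) and Spry2 (0.43 ± 0.11), feedback inhibitors of ERK signalling, were higher among 15 ERK feedback genes. Of 16 immediate early genes Egr1 (log2FC -1.05 ± 0.27, FDR 0.0262), Egr3 (log2FC -0.94 ± 0.25) and Jun (-0.57 ± 0.12) were lower after 24 h and none was higher. Egr1 had 56.5, 101, 37.5 and 85.4 FPM in Control and 53.9, 33.7, 13.6 and 36.4 FPM under ALL stressors and hardly moved in set 1. Without set 1 there were 8 immediate early genes called lower, and without sets 2, 3 and 4 there were 1, 1 and 0.

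Of 20 genes for insulin and IGF signalling and imprinted growth genes 5 were lower, H19 among them, and 1 was higher. Dlk1, a Notch-like inhibitor of differentiation, had 2.11, 10.3, 5.21 and 9.75 FPM in Control and 0.801, 5.17, 1.28 and 4.10 FPM under ALL stressors (log2FC -1.43 ± 0.24, FDR 0.00226). Plagl1, a zinc finger regulator of the imprinted gene network, had log2FC -0.78 ± 0.20, with 226 FPM in the Control library of set 4 and no other library over 100 FPM. Igf1 (-0.60 ± 0.12) and Igfbp6 (-0.34 ± 0.10) were lower and Igfbp2 (0.47 ± 0.12) was higher. Of 24 cytokine and chemokine genes Tnfrsf11b, osteoprotegerin, was higher (log2FC 1.22 ± 0.25, FDR 0.00771), and Il1rl1 and Il1r1, the IL-1 receptor (-0.63 ± 0.13), were lower. That is 4.17% higher and 8.33% lower, against 3.92% and 3.53% of all genes. The median log2FC of the cytokine and chemokine list was -0.56, with 17 members below 0 and 7 above it. Its per-set medians were -0.59, -0.85, -0.15 and -0.17 in sets 1 to 4. Calls among growth and cytokine genes were lost for Flt1 without set 2 (highest FDR 0.0557), Fgfr1 without set 2 or 4 (highest FDR 0.105), Id3 without set 2, 3 or 4 (highest FDR 0.207), Tgfbi without set 4 (highest FDR 0.0955), Ltbp4 without set 1, 3 or 4 (highest FDR 0.234), Tgfbr2 without set 2, 3 or 4 (highest FDR 0.357), Nrg1 without set 3 or 4 (highest FDR 0.196), Spry4 without set 1, 2 or 4 (highest FDR 0.120), Spry2 without set 3 or 4 (highest FDR 0.198), Egr1 without set 2, 3 or 4 (highest FDR 0.130), Egr3 without set 2 or 4 (highest FDR 0.186), Jun without set 3 or 4 (highest FDR 0.0649), Plagl1 without set 1 or 4 (highest FDR 0.250), Igfbp6 without set 1, 2, 3 or 4 (highest FDR 0.186), Igfbp2 without set 3 or 4 (highest FDR 0.195) and Il1r1 without set 4 (highest FDR 0.0622).

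Interferon-stimulated genes fell in 3 of the 4 sets. Of 23 tested 11 were lower and none higher (47.8% against 3.53%), with a median log2FC of -0.90 and per-set medians of -1.10, -1.48, -0.89 and 0.09. Usp18, which shuts off the type I interferon receptor, had 18.3, 23.1, 13.4 and 7.56 FPM in Control and 6.68, 8.21, 4.94 and 7.76 FPM under ALL stressors (log2FC -1.11 ± 0.24, FDR 0.00969). Set 4 began at the lowest Control level and did not fall. Oas2, a sensor of double-stranded RNA, had 5.71, 4.95, 4.58 and 3.15 FPM in Control and 2.40, 1.45, 0.795 and 2.07 FPM under ALL stressors (log2FC -1.48 ± 0.35, FDR 0.0175). Cmpk2 (log2FC -1.25 ± 0.27), the transcription factor gene Irf7 (-0.85 ± 0.23), Mx2 (-1.32 ± 0.29) and Mx1 (-4.23 ± 0.97) fell too, Mx1 from at most 1.53 FPM. Without set 4 there were 16 genes called, whereas without sets 1, 2 and 3 there were 6, 1 and 0. The call was lost for Usp18 without set 2 or 3 (highest FDR 0.0783), Oas2 without set 2 or 3 (highest FDR 0.132), Cmpk2 without set 2 or 3 (highest FDR 0.0922), Irf7 without set 1, 2 or 3 (highest FDR 0.202), Mx2 without set 1, 2 or 3 (highest FDR 0.0776) and Mx1 without set 3 (highest FDR 0.0576).

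The promoters of this list were searched for GAAANNGAAA, the core of the interferon-stimulated response element, on either strand of the 250 bases. It was found in 10 of 24 promoters (41.7%) and in 3.32% of all. Of the genes with it, Oas2, Usp18 and Ifit3b were called lower. Ifit1, Ifit3, Isg15, Oas3, Rsad2, Stat2 and Bst2 had it and were not called. Called genes such as Mx1, Mx2, Cmpk2 and Irf7 lacked it, so its presence did not follow the calls. The promoters of Usp18 (chr6:121222607-121222856, plus strand) and Oas2 (chr5:120887934-120888183, minus strand), both of called genes, are shown with the match in capitals.
Usp18: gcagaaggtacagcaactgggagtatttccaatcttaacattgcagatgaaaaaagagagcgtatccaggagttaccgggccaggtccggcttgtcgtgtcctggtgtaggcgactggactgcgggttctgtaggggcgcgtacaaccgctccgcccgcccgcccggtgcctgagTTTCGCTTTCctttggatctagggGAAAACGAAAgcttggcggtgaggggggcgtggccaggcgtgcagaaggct
Oas2: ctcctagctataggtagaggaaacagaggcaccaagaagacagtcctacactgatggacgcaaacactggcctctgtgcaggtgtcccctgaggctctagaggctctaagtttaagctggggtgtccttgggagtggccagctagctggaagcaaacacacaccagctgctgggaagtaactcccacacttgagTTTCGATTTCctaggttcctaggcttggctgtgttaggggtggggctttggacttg

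Of 24 genes of ER stress and the integrated stress response 6 were lower and none was higher, by small amounts. Hspa5, the chaperone BiP, had 1004, 739.7, 982 and 790.1 FPM in Control and 797, 511, 874 and 616 FPM under ALL stressors (log2FC -0.35 ± 0.08, FDR 0.0149), and Dnajb9, Xbp1 and Ddit3 had log2FC -0.45 ± 0.09, -0.34 ± 0.07 and -0.41 ± 0.12. Pdia6 (-0.31 ± 0.08) and Sdf2l1 (-0.30 ± 0.08) were the others, and with 1 set left out 1 to 3 genes were called. Hspa5 and Ddit3 share 44.4% and 81.5% of their exon bases with other genes. Of 20 NRF2 targets and antioxidant genes Hmox1 (0.29 ± 0.09) and Txnrd1 (0.27 ± 0.07) were higher and Aldh3a1, an aldehyde dehydrogenase, was lower, from 11.8, 36.7, 6.03 and 21.4 FPM to 6.65, 19.5, 3.84 and 5.82 FPM (log2FC -1.06 ± 0.19, FDR 0.00326). The stress gene calls lost without a set were those of Hspa5 without set 2 or 4 (highest FDR 0.117), Dnajb9 without set 2 (highest FDR 0.0562), Xbp1 without set 1, 2 or 4 (highest FDR 0.0809), Ddit3 without set 1, 3 or 4 (highest FDR 0.310), Pdia6 without set 1, 2, 3 or 4 (highest FDR 0.124), Sdf2l1 without set 1, 2, 3 or 4 (highest FDR 0.159), Hmox1 without set 1, 3 or 4 (highest FDR 0.266) and Txnrd1 without set 1, 3 or 4 (highest FDR 0.127).

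ALL stressors were also compared with HG + FFA and with AII + NA alone. All 3 stressor effects share the Control libraries, so their values are given side by side. ALL stressors differed from HG + FFA alone in 5 higher genes (0.0296%) and 2 lower genes (0.0118%), among them Agtr1b (log2FC of ALL minus HG + FFA 1.35 ± 0.20), Bmp3 (0.72 ± 0.11) and Agtr2 (-1.73 ± 0.26). They differed from AII + NA alone in 119 higher genes (0.704%) and 111 lower genes (0.657%). The difference from HG + FFA took in 1829 genes (10.8%) at an unadjusted p under 0.05, where a share of 0.05 is expected without any effect. DESeq2 called 212, so that the small count by edgeR does not show equal effects.

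The estimates of single genes under HG + FFA and AII + NA differed. The log2FC of Agtr1b was 1.40 ± 0.20 under ALL stressors, 0.04 ± 0.21 under HG + FFA and 1.44 ± 0.20 under AII + NA. In this order Itga8 had 1.75 ± 0.25, 0.43 ± 0.25 and 1.62 ± 0.25, and Edn1 1.59 ± 0.35, 0.38 ± 0.35 and 1.5 ± 0.35. Under HG + FFA these genes were near 0 or below their ALL value. Pdk4 had 1.62 ± 0.23, 1.52 ± 0.23 and 0.10 ± 0.23, and Aldh1a3 had -1.48 ± 0.16, -1.29 ± 0.16 and -0.29 ± 0.16. Under AII + NA these were near 0 for Pdk4 and small for Aldh1a3. Tnc had values above 0 under each, with 1.49 ± 0.17, 0.56 ± 0.17 and 0.93 ± 0.17, as did Fabp4 with 1.82 ± 0.25, 1.08 ± 0.25 and 0.98 ± 0.25.

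List medians under ALL stressors, HG + FFA and AII + NA were 0.48, -0.07 and 0.65 for the contractile apparatus and 0.49, 0.00 and 0.39 for the actin list. They were 0.38, 0.37 and -0.02 for PPAR targets, 0.54, 0.47 and 0.19 for cholesterol genes and 0.75, 0.68 and 0.15 for G2 and mitosis genes. LXR targets had -0.29, -0.21 and -0.02, and interferon-stimulated genes -0.90, -0.77 and -0.40. Of these lists ALL stressors differed from AII + NA in 5 PPAR targets, 3 cholesterol genes and 6 G2 and mitosis genes, all higher, and in 4 LXR targets, all lower. The medians are descriptions, and 0 members of these 7 lists differed between ALL stressors and HG + FFA.

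A gene could respond to ALL stressors by more than the sum of both single treatments, and this was tested gene by gene as the departure from additivity on the log2 scale. No gene was called (0%) by edgeR, with a smallest FDR of 0.9998, or by DESeq2. At an unadjusted p under 0.05 there were 290 genes (1.72%), less than the share of 0.05 expected without any effect. The departures of single genes were within a few SE of 0, such as -0.00 ± 0.24 for Tnc, 0.34 ± 0.29 for Eln, -0.53 ± 0.49 for H19 and -0.09 ± 0.28 for Agtr1b. With 4 sets an SE of this size leaves room for departures in either direction that were not detectable here.

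**Figure D4:**
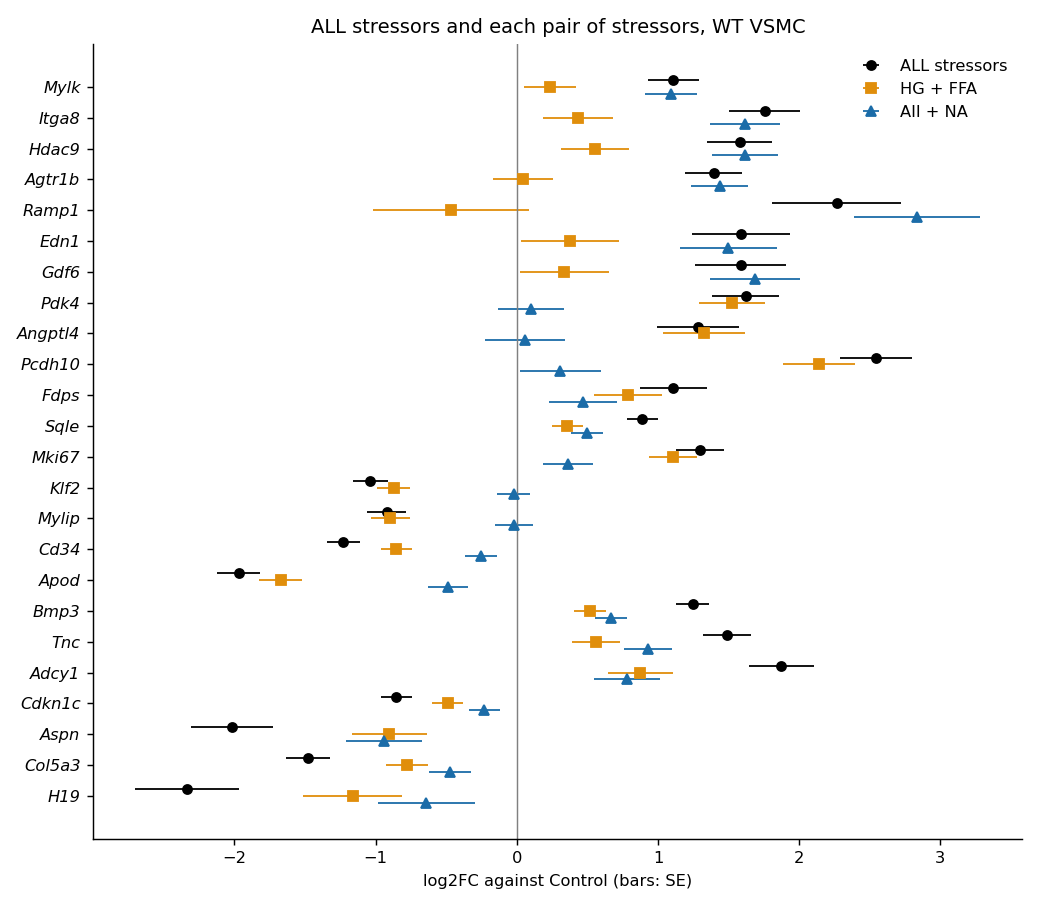
Log2FC against Control with SE (x axis) under ALL stressors, HG + FFA and AII + NA (symbols) in WT VSMC for 24 genes picked after their values were seen, with all 3 effects measured against the same Control libraries. Agtr1b lies near 0 under HG + FFA, Pdk4 lies near 0 under AII + NA, and Tnc lies right of 0 under each.

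Both genotypes were exposed to ALL stressors, and their effects were compared in 1 model fitted to 31 libraries and 18339 genes. Only 3 KO sets had both a Control and an ALL library, which makes the KO values less precise. The effects differed by edgeR for 2 genes (0.0109%), and DESeq2 called 73. An unadjusted p under 0.05 was reached by 1361 genes (7.42%), where a share of 0.05 is expected without any effect. For Aldh3a1 the log2FC was -1.06 in WT VSMC, but 0.42 ± 0.17 in KO VSMC (difference -1.48 ± 0.24, FDR 0.0303). Anxa8, an annexin, had -0.88 in WT VSMC and -0.15 ± 0.09 in KO VSMC (difference -0.73 ± 0.12, FDR 0.0303). In WT VSMC Anxa8 fell from 62.6, 30.7, 19.4 and 16.9 FPM to 35.5, 14.8, 11.1 and 9.35 FPM, in each set by a similar factor.

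For the other genes the 2 genotypes are given side by side, and their differences were not called. Agtr1b had a log2FC of 1.40 ± 0.20 in WT VSMC and 0.02 ± 0.25 in KO VSMC (difference FDR 0.188), and Mylk had 1.11 ± 0.18 and -0.02 ± 0.22 (FDR 0.224). Tnc had 1.49 ± 0.17 and 0.32 ± 0.20 (FDR 0.188), and Cd34 had -1.23 ± 0.12 and -0.26 ± 0.14 (FDR 0.0820). For these genes the KO estimate was the smaller one. Pdk4 had 1.62 ± 0.23 and 1.74 ± 0.26, Apod -1.97 ± 0.15 and -1.59 ± 0.30, and Pcdh10 2.54 ± 0.26 and 3.22 ± 0.56, which is of like size in both. The list medians in WT VSMC and KO VSMC were 0.48 and 0.01 for the contractile apparatus, 0.49 and 0.07 for the actin list, 0.38 and 0.61 for PPAR targets, 0.54 and 0.27 for cholesterol genes, 0.75 and 0.16 for G2 and mitosis genes and -0.90 and -0.14 for interferon-stimulated genes. In KO VSMC 0 members of the contractile and actin lists were called by edgeR, where 0.818% of all genes were, so that this count is near the background, and 0 differed between genotypes by edgeR.

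**Figure D5:**
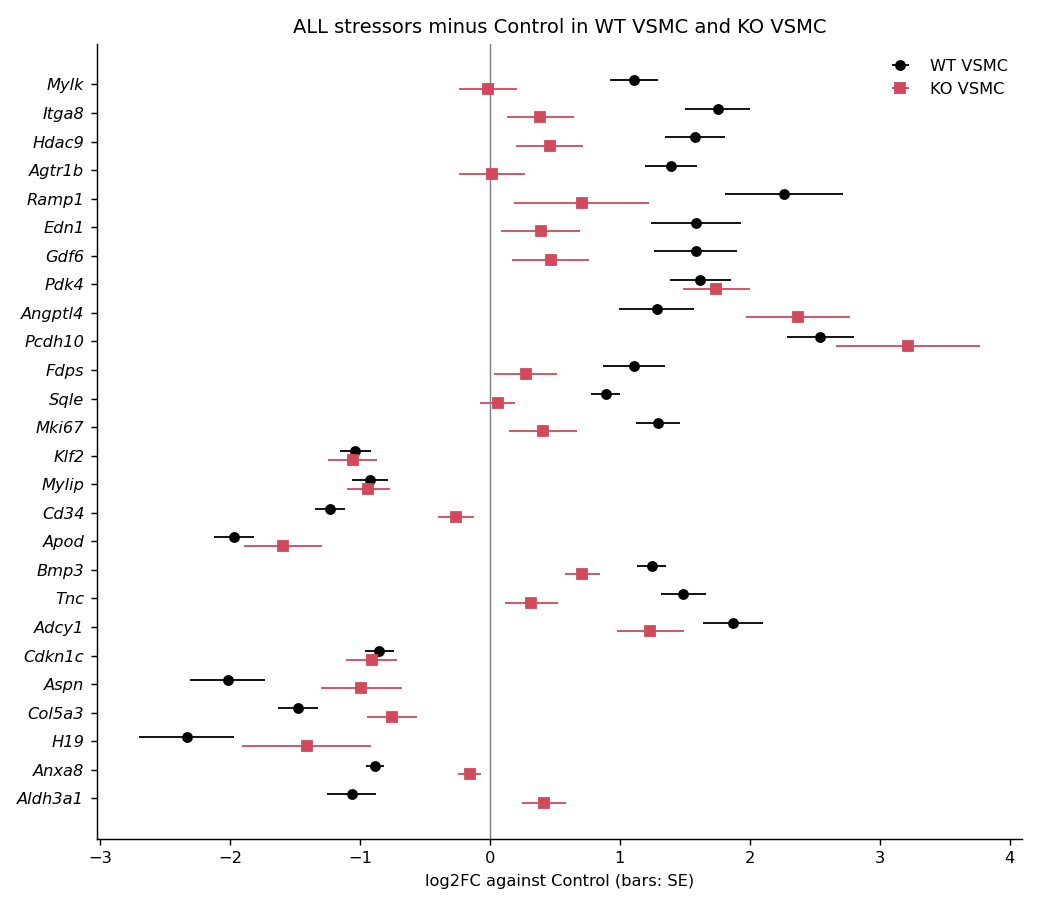
Log2FC of ALL minus Control with SE (x axis) in WT VSMC and in KO VSMC (symbols) for 26 genes, of which only Anxa8 and Aldh3a1 differed between genotypes by edgeR and which were picked after their values were seen. Pdk4 lies right of 0 in both genotypes, while Agtr1b and Mylk lie right of 0 in WT VSMC and near 0 in KO VSMC.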

How the data were processed

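Poly(A) RNA-Seq libraries of WT VSMC were used. The authors aligned the reads with HISAT2 2.1.0 to mm39, counted them per gene over exons with featureCounts, including reads with several alignments, and deposited these counts without normalization. The strand setting was not given in the sources used here, so reads of overlapping genes may be split or lost. Identifiers matched the GENCODE annotation of GRCm39 for 56310 of 56953 genes, and the others held 0.0233% of the counts.

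From the counts, edgeR 4.0.16 (TMM, filterByExpr, quasi-likelihood test) and DESeq2 1.42.0 in R 4.3.3 were fitted to all 16 WT VSMC libraries with condition and set as terms, and to 31 VSMC libraries for the genotype comparison. The Benjamini-Hochberg adjustment took in every gene tested. DEG are defined in the report, and members of lists were counted by edgeR's FDR under 0.05. The pairing comes from the set numbers in the labels and from the methods, which give cells of 1 animal and passage. Deviations from the condition means correlated between Control and ALL libraries of the same set at r = 0.742 to 0.895 across 13789 genes, so that the set was kept as a block. The mean between sets was -0.268, but subtracting the condition means forces this value below 0, and it is no separate support for the pairing. No 2 libraries of a condition were duplicates, with a chi-square per gene of at least 41.6. On simulated data, 93.5% of 200 genes changed by a log2FC of 0.75 were recovered by edgeR and 90.5% by both tools for ALL minus Control over 16905 genes, with 9 and 8 false calls. The changed genes were drawn from those with a mean of at least 3 FPM and were shifted equally in every set. Recovery of lower genes, or of responses that differ between sets, was not simulated and may be poorer.

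The samples, the 34 gene lists and the tests were chosen with earlier results of these data known. Genes named were the 10 higher and 10 lower DEG of largest |log2FC| that moved the same way in 4 sets, up to 4 called members of each list, the smooth muscle markers and Egfr. Further list members were named after their values were seen. Some genes that the rule picks are not reported here. Promoters were the 250 bases before the start of the canonical transcript. The log2 ratios of single sets used a pseudocount of 0.1 FPM. Alternatives were each tool alone, other size factors, no count filter, no block, only the 8 libraries, other thresholds and gene types, and each set left out. The endothelial cell libraries were not used here.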

Additional observations from a re-analysis of the deposited data

Results flagged for a closer look

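The log2 ratio of ALL over Control in 1 set lay far from the other 3 sets for 6 of 140 groups of 4 values examined, where chance gives about 1 in 20. Klf4 had -0.27 in set 1 against -0.71 to -0.68 in the other sets. Grk5 had 0.10 in set 2 against 0.27 to 0.28. Kcnj8 had -2.59 in set 1 against -1.25 to -1.0, at 1.06 FPM in Control and 0.0924 FPM under ALL stressors there. Mylip had -0.66 in set 4 against -1.03 to -0.98, and Lox had 0.44 in set 1 against 0.84 to 0.87. Mx2 had 0.28 in set 4 against -1.80 to -1.61 in the other sets.

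The effect of ALL stressors differed between genotypes for 2 genes in the interaction test of edgeR's joint model. The difference WT minus KO was -0.73 for Anxa8, with -0.88 in WT VSMC and -0.15 in KO VSMC, and -1.48 for Aldh3a1, with -1.06 in WT VSMC and 0.42 in KO VSMC. Both had an FDR of 0.0303. Without WT set 1, 2 or 4 no gene was called in this test.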

How the results depend on the processing

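The 360 DEG became 374 with edgeR alone, 367 with DESeq2 alone, 359 with DESeq2's size factors, 369 without the count filter, 342 with only the 8 libraries, 461 without the FPM minimum and 363 with all gene types. They became 1077 without a log2FC threshold and 128 with one of at least 1, and 245 to 377 with 1 set left out. Genes called by edgeR went from 1259 to 1333 with DESeq2, to 1885 without the count filter, to 908 with only the 8 libraries and to 494 to 970 with 1 set left out, fewest without set 4. The 7 genes that differed between ALL stressors and HG + FFA became 212 with DESeq2 and 0 to 12 with 1 set left out, with 0 without set 2 or 3 and 1 without set 4. The 230 genes that differed between ALL stressors and AII + NA became 446 with DESeq2 and 56 to 137 with 1 set left out, fewest without set 3. The 2 genes that differed between genotypes became 73 with DESeq2 and 0 or 1 with 1 WT set left out. Departure from additivity gave 0 genes throughout.

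Without the replicate block, which ignores the pairing by set, edgeR called 0 genes for ALL minus Control (864 at an unadjusted p under 0.05, 78 by DESeq2), so that no DEG were left. It also called 0 genes in each of the other comparisons, where 68 to 432 genes had an unadjusted p under 0.05 and DESeq2 called 0 to 6. Those 68 to 432 genes are under a share of 0.05 of the genes tested. As this fit leaves the differences among sets in the error, such shares cannot be read as the absence of an effect. Levels of many genes differed more among sets than between groups. Of 130 called genes followed singly, none reversed its direction under any alternative, and 64 kept their call in every alternative other than the fit without the block. The cause of the lost calls was not tested, except that leaving out a set leaves 3 pairs. Depth limits genes under about 1 FPM, such as Mx1, Casq2 and Mmp9.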

Other observations

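Genes of retinoid metabolism, listed after their values were seen, moved in both directions. By edgeR 4 of 15 tested were higher and 4 lower (26.7% each, against 3.92% and 3.53% of all genes). Dhrs3, which reduces retinaldehyde to retinol, had 81.9, 63.5, 73.6 and 83.4 FPM in Control and 318, 258, 171 and 205 FPM under ALL stressors in sets 1 to 4 (log2FC 1.65 ± 0.18, FDR 0.000180). Its groups did not overlap. Cyp26b1, which degrades retinoic acid, rose from 34.9, 36.9, 27.0 and 13.5 FPM to 82.8, 92.2, 37.5 and 48.9 FPM (log2FC 1.22 ± 0.21, FDR 0.00286), also without overlap. Aldh1a1, which makes retinoic acid, was higher (log2FC 1.12 ± 0.17, FDR 0.00150), whereas Aldh1a3 and Aldh1a2, which do the same, were lower (log2FC -1.48 ± 0.16 and -0.81 ± 0.15). The receptor gene Rarb had log2FC 1.6 ± 0.40 at under 2 FPM, the binding protein gene Crabp1 -1.07 ± 0.27 and the alcohol dehydrogenase gene Adh1 -0.69 ± 0.13. Under HG + FFA alone Dhrs3 had 1.35 ± 0.18, under AII + NA 0.11 ± 0.18, and in KO VSMC under ALL stressors 0.75 ± 0.21. The difference of Dhrs3 between genotypes was not called by edgeR. Calls were lost without a set for Rarb without set 1, 2 or 4 (highest FDR 0.157) and Crabp1 without set 1, 2, 3 or 4 (highest FDR 0.107).

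Genes of antigen processing and of the interferon-γ response, also listed after their values were seen, had a median log2FC of -0.51. All 20 lay below 0, and 7 were called lower (35% against 3.53% of all genes). The immunoproteasome gene Psmb9 had 11.7, 11.4, 10.8 and 8.01 FPM in Control and 5.85, 4.63, 7.50 and 6.09 FPM under ALL stressors (log2FC -0.79 ± 0.21, FDR 0.0301) without overlap, and Psmb8 had log2FC -0.71 ± 0.19. The per-set medians were -0.65, -0.78, -0.47 and -0.11, again smallest in set 4. With 1 set left out 0 to 8 genes were called, and the calls were lost for Psmb9 without set 1 or 3 (highest FDR 0.132) and Psmb8 without set 1, 2 or 3 (highest FDR 0.179).

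Of 18 circadian clock genes, Nfil3, a repressor of D-box genes, was higher (log2FC 1.02 ± 0.24, FDR 0.0184) and Cry1 had log2FC 0.41 ± 0.11, while none was lower. The 2 genes are 11.1% of the list, against 3.92% of all genes. Nfil3 had 22.5, 21.3, 20.0 and 21.7 FPM in Control and 33.3, 48.8, 29.2 and 73.0 FPM under ALL stressors, without overlap. Its log2FC was 0.11 ± 0.24 under HG + FFA, 1.13 ± 0.25 under AII + NA and 0.04 ± 0.24 in KO VSMC under ALL stressors. The difference of Nfil3 between genotypes was not called by edgeR. The calls were lost for Nfil3 without set 2 (highest FDR 0.0857) and Cry1 without set 2, 3 or 4 (highest FDR 0.183).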
